A study of Homo sapiens with 36 samples.

Results

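The cholesterol synthesis and SREBP2 target genes followed here are 28 genes of the 57771 in the count table. They were chosen by name, from the pathway and its known regulation, and not by a rule on measured values. Earlier results of these data were known when they were chosen. They are 8 genes of acetyl-CoA and mevalonate metabolism, 11 genes of the squalene and sterol steps, 4 control genes, 4 genes of sterol transport and MMAB, a cobalamin enzyme gene that shares its promoter region with MVK. All 28 passed the filter on low counts. Poly-A RNA was sequenced from HepG2 cells, a human hepatoblastoma line that is widely used as a hepatocyte model, in which IGF1R, the receptor of insulin-like growth factor, had been knocked out.

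All 36 libraries carry the IGF1R knockout, so no group tests it, and the labels do not say whether the line is 1 clone. The 4 groups of 9 libraries were insulin-stimulated cells in insulin-resistant medium, untreated cells in insulin-resistant medium, insulin-stimulated cells in normal medium and untreated cells in normal medium. Stimulated cells received human insulin at 3 nM during 18 h. Resistance was induced over the 72 h before that, in a medium with 20 mM glucose, human insulin at 1 nM and palmitic, linoleic and oleic acids at 0.5 mM. The labels do not say whether its insulin was removed first, so the untreated cells of that medium may still have been exposed to insulin.

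SREBP2, encoded by SREBF2, is a transcription factor held in the endoplasmic reticulum by SCAP and the INSIG proteins while sterols are plentiful. When sterols fall, SCAP carries it to the Golgi, where it is cleaved, and its released domain turns on the genes of cholesterol synthesis and uptake. Insulin is known to raise SREBP1 in liver cells and in mouse and rat liver to lower the liver-specific Insig2 transcript, while INSIG1 is itself an SREBP target.

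The promoters of 5 members are shown because INSIG1, INSIG2, SREBF2, STARD4 and MVK carry the results below and differ in these motifs. RefSeq windows of GRCh38.p14, from 250 bases before to 50 bases after each start, were matched for 25 of the 28 genes, as 33 windows. SQLE, FDFT1 and ACAT2 were not matched. The sterol regulatory element was searched as TCACNCCAC, the CCAAT box, where NF-Y binds, as CCAAT, and the GC box, where SP1 binds, as GGGCGG, each on both strands. In the sequences, written 5′ to 3′ on the gene's strand and ending at the base before the start, capitals mark CCAAT, its inverse ATTGG and the sterol regulatory element. MVK lies at chr12:109573574-109573793 (plus strand), SREBF2 at chr22:41832945-41833104 (plus strand), STARD4 at chr5:111512536-111512705 (minus strand), INSIG1 at chr7:155297678-155297877 (plus strand) and INSIG2 at chr2:118088321-118088470 (plus strand).
MVK: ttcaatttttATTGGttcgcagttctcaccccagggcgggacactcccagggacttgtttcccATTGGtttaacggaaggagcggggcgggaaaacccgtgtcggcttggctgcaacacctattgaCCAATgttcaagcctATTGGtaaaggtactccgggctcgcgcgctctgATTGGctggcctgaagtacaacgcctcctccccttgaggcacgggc
SREBF2: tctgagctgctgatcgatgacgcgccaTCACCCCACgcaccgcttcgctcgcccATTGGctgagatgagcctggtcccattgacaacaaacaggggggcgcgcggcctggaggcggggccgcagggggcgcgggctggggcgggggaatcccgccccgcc
STARD4: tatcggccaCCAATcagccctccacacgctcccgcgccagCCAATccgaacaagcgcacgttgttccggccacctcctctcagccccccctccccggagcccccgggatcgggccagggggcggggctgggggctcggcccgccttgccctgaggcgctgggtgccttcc
INSIG1: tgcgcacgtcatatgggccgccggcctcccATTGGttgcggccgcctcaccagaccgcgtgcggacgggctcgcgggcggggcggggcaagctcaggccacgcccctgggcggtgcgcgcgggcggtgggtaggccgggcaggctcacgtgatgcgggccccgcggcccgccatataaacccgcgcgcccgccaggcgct
INSIG2: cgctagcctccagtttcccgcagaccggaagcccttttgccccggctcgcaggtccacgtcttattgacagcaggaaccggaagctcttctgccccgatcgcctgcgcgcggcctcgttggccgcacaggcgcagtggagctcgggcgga

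A CCAAT box stood in 22 of the 33 member windows (66.7%), against 34.6% of all 35116 windows. A GC box stood in 29 of 33 member windows (87.9%), against 45.0% of all windows. The sterol regulatory element in its full letters stood in 1 member window, that of SREBF2, against 1.13% of all windows. The printed INSIG2 stretch has no capitals, since neither motif was found in it, whereas the stretch between MVK and MMAB has several CCAAT boxes. INSIG2 has 2 windows, of which the first is printed, and neither motif was found in the other. Counts per gene do not show which start was used. MVK, on the plus strand, and MMAB, on the minus strand, are head to head with 289 bases between their first bases, so the printed stretch lies upstream of both. These matches describe letters and not binding.

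**Figure D1:**
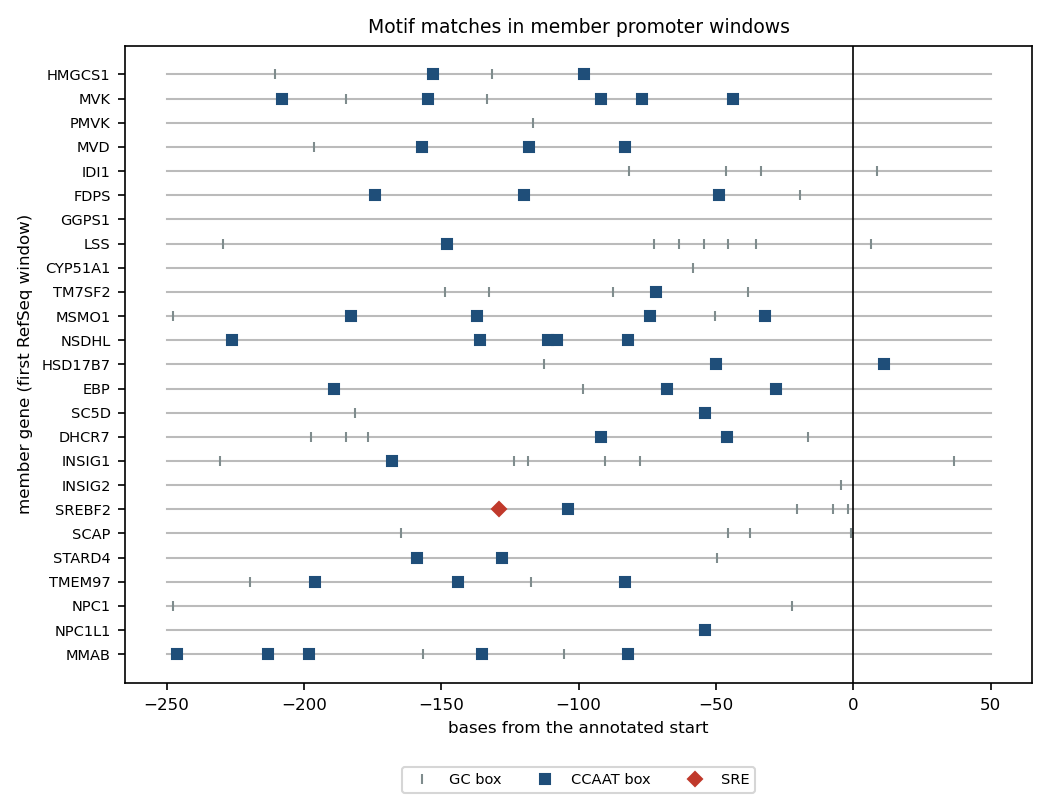
Positions of the CCAAT box, GC box and sterol regulatory element in the first RefSeq window of each of 25 members, as distance in bases from the start. Over all windows of these genes, CCAAT boxes stood in 22 of 33 windows and the sterol regulatory element in 1.

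Total counts per library, divided by 1000000, were 26.6 to 116.8 (median 64.6). IGF1R transcript was present in all of them, at 77.8 to 134.4 CPM (counts per 1000000 counts), so its level does not check the knockout. The label calls the cells hepatocytes, and the summed level of 20 hepatocyte genes was 13082 to 40938 CPM. However, 30 libraries also held COL1A1, a collagen gene of stromal cells, at 8071 to 31870 CPM and a summed level of 20 stromal genes of 25062 to 82894 CPM. The other 6 libraries, untreated replicates 1, 2 and 3 of insulin-resistant medium and insulin-stimulated replicates 4, 5 and 6 of normal medium, held COL1A1 at 0.784 to 1.70 CPM and the stromal genes at 196 to 236 CPM in sum. DCN, POSTN, TWIST1 and FAP were at 0 in those 6. These 6 libraries are called the low-COL1A1 libraries, and the counts of called members are given with and without them. The part that the cell make-up of the libraries plays in any result was not tested, and in bulk RNA fewer cells of a type and less RNA per cell cannot be told apart.

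INSIG1, whose protein retains SCAP in the endoplasmic reticulum, had 0 counts in all 6 low-COL1A1 libraries, which together held 219 times 1000000 counts. In the other 30 libraries it had 2401 to 6532 counts, or 24.8 to 80.0 CPM before TMM scaling. Against a floor of 3 counts per library, its mean was at least 338-fold lower in the 3 low-COL1A1 libraries of untreated cells in insulin-resistant medium than in the other 6 of that group. In insulin-stimulated cells in normal medium it was at least 455-fold lower in the corresponding 3 libraries. INSIG1 was one of 69 genes with 0 counts in all 6 and more than 5 CPM in each of the 30.

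The nearest genes on either side, HTR5A, EN2 and CNPY1, were at 0 in the 6 libraries and at most 0.0631 CPM in the other 30, so they carry no comparison. The nearest neighbours with counts throughout were PAXIP1 and RBM33. PAXIP1 was at 22.7 to 25.1 CPM in the 6 libraries, against 13.2 to 20.9 CPM in the other 30. RBM33 was at 63.4 to 74.6 CPM in the 6, against 36.3 to 67.4 CPM in the 30. INSIG1 therefore splits the libraries in the same way as COL1A1, within groups rather than between them. Across the groups it had a lowest, median and highest of 46.6, 55.1 and 75.4 CPM in insulin-stimulated cells and 0, 26.7 and 55.5 CPM in untreated cells of insulin-resistant medium. In normal medium it had 0, 43.5 and 61.5 CPM in insulin-stimulated cells and 31.3, 46.2 and 58.6 CPM in untreated cells. INSIG1 was not called in any of the comparisons over all 36 libraries.

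Of the other 27 members, 17 were higher in each of the 3 low-COL1A1 libraries than in each of the other 6 of their group, in both groups, against 14.1% of all genes tested. INSIG1 was the 1 member below the other 6 in both groups, against 22.8% of all genes. HMGCS1, which makes the substrate of the rate-limiting step, averaged 767 CPM in the 3 low-COL1A1 libraries and 445 CPM in the other 6 of untreated cells in insulin-resistant medium. In insulin-stimulated cells in normal medium it averaged 572 CPM in the 3 and 354 CPM in the other 6. NPC1L1, a sterol uptake transporter, was 1.66 times and 1.94 times as high in the low-COL1A1 libraries of those groups. PMVK and GGPS1 had ratios below 1 in both groups.

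The mean log2 CPM of the 27 members without INSIG1 was 6.78 ± 0.07 in insulin-stimulated and 6.97 ± 0.20 in untreated cells of insulin-resistant medium (SD, n = 9 each). In normal medium it was 6.87 ± 0.23 in insulin-stimulated and 6.83 ± 0.11 in untreated cells (SD, n = 9 each). Leaving out the low-COL1A1 libraries gave 6.85 ± 0.08 in untreated cells of insulin-resistant medium and 6.73 ± 0.11 in insulin-stimulated cells of normal medium (SD, n = 6 each). The groups then spanned 6.73 to 6.85, and the 3 low-COL1A1 libraries stood at 7.22 ± 0.03 and 7.15 ± 0.07 in the same 2 groups (SD, n = 3 each). With INSIG1 included, the 4 means were 6.75, 6.79, 6.70 and 6.78, since its 0 counts offset the higher levels of the rest.

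**Figure D2:**
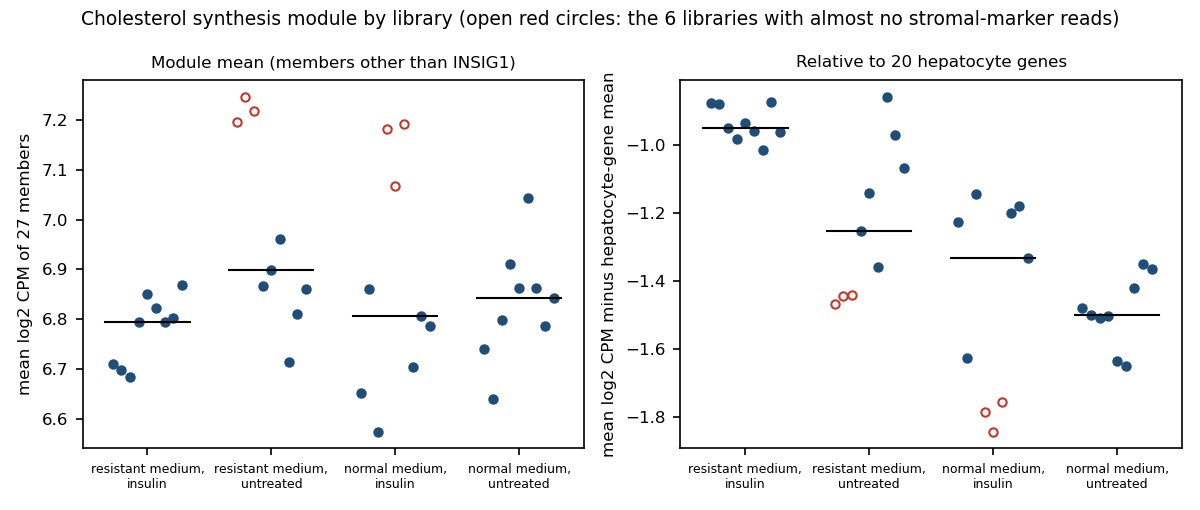
Mean log2 CPM of the 27 members other than INSIG1 in each library by group (left), and the same minus the mean of 20 hepatocyte genes (right), with low-COL1A1 libraries as open circles and group medians as lines. Without INSIG1, the low-COL1A1 libraries averaged 7.22 and 7.15 on the left scale, above the group means of 6.73 to 6.85 of the remaining libraries.

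Set against the mean log2 CPM of the 20 hepatocyte genes, the 27 members stood at -0.94 ± 0.05 in insulin-stimulated cells of insulin-resistant medium, against -1.45 ± 0.29 in those of normal medium (SD, n = 9 each). In untreated cells the difference was -1.22 ± 0.22 in insulin-resistant medium, against -1.49 ± 0.10 in normal medium (SD, n = 9 each). When the low-COL1A1 libraries were left out, untreated cells of insulin-resistant medium stood at -1.11 and insulin-stimulated cells of normal medium at -1.28. The hepatocyte genes themselves moved: without those libraries, 13 of the 20 were called lower and 1 higher with insulin-resistant medium in untreated cells. A value relative to them therefore carries their change as well as that of the members.

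**Figure D3:**
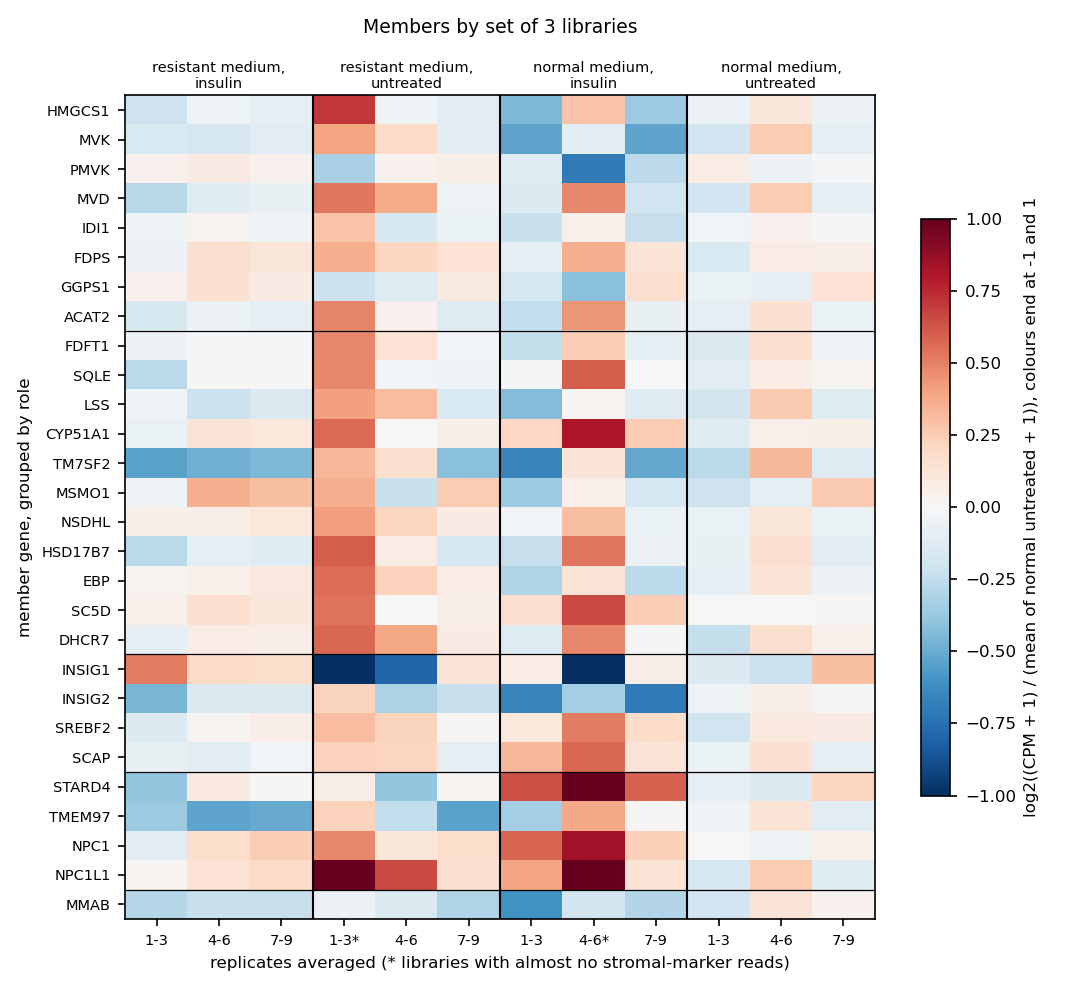
Level of each of the 28 members averaged over sets of 3 replicates, by group, as the log2 ratio of CPM + 1 to that of the mean of untreated cells in normal medium. Stars mark the sets of low-COL1A1 libraries, where INSIG1 is lowest and 17 other members stand above the remaining libraries of their group.

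The insulin effect in normal medium asks how 18 h of insulin changed these genes in cells not made resistant. The called members were 3 of 4 transport genes, SCAP, SREBF2, CYP51A1 and SC5D, which were higher, and MVK, PMVK, MMAB and INSIG2, which were lower. Over all 36 libraries, 7 of 28 members were called higher, against 24.9% of all 17983 genes tested, and 4 were called lower, against 10.2% of all genes. The share called higher is thus near that of all genes. Called means an adjusted p under 0.05 in edgeR's quasi-likelihood test. The median log2 fold change of the members was 0.07, against 0.03 over all genes.

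STARD4, a carrier of sterol through the cytosol, had a lowest, median and highest of 127, 156 and 225 CPM in insulin-stimulated cells, against 82.0, 86.9 and 110.0 CPM in untreated cells. The groups did not overlap. In this comparison 2 members were higher without overlap, against 6.63% of all genes tested. The log2 fold change of STARD4 was 0.78 ± 0.10 (SE; adjusted p = 1.35e-07), and 0.49 ± 0.09 (adjusted p = 6.12e-05) without the low-COL1A1 libraries. NPC1, which exports sterol from lysosomes, rose by a log2 fold change of 0.58 ± 0.10 (adjusted p = 1.02e-05), and NPC1L1 by 0.70 ± 0.18 (adjusted p = 0.00202). In the other 30 libraries these values were 0.33 and 0.24, and both were still called. There NPC1L1 was at 63.3 CPM in insulin-stimulated replicate 2 of normal medium and at 32.7 to 38.9 CPM in the rest of that group. Untreated cells of normal medium had 27.6 to 41.7 CPM. Without insulin-stimulated replicate 5 of normal medium, which also changes the scaling reference, NPC1L1 was at 0.42 (adjusted p = 0.0516) and was not called. TMEM97, an endoplasmic reticulum protein that binds NPC1, was the transport member not called over all libraries. Without the low-COL1A1 libraries TMEM97 was called lower with insulin.

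INSIG2, the other retention protein for SCAP, had 35.3, 40.9 and 51.8 CPM in insulin-stimulated cells, against 57.4, 62.4 and 76.2 CPM in untreated cells of normal medium. Every insulin-stimulated library was below every untreated one, which held for 1 member and for 1.81% of all genes tested. The log2 fold change of INSIG2 was -0.57 ± 0.09 (adjusted p = 6.79e-06), and -0.80 ± 0.07 (adjusted p = 1.24e-09) without the low-COL1A1 libraries. SCAP, the SREBP escort, was higher by 0.38 ± 0.07 (adjusted p = 1.78e-05), at 83.9, 96.9 and 133 CPM in insulin-stimulated cells, against 74.4, 79.0 and 94.0 CPM in untreated cells. The SCAP ranges overlapped, and its value was 0.17 ± 0.05 (adjusted p = 0.00586) without the low-COL1A1 libraries. SREBF2 had a log2 fold change of 0.30 ± 0.08 (adjusted p = 0.00219) over all libraries and 0.07 ± 0.06, not called, without them.

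MVK, mevalonate kinase, had 32.0, 39.3 and 55.6 CPM in insulin-stimulated cells, against 40.0, 49.5 and 69.7 CPM in untreated cells of normal medium. Its ranges overlapped, with a log2 fold change of -0.35 ± 0.09 (adjusted p = 0.00259), and -0.60 ± 0.06 (adjusted p = 1.26e-08) without the low-COL1A1 libraries. MMAB, its divergent neighbour, changed by -0.34 ± 0.07 (adjusted p = 0.000299) and -0.54 ± 0.07 in the same 2 fits. PMVK, the next kinase of the pathway, changed by -0.38 ± 0.10 (adjusted p = 0.00474), and by -0.35 ± 0.08 without the low-COL1A1 libraries. Of the sterol genes, CYP51A1, lanosterol demethylase, was higher by 0.44 ± 0.11 (adjusted p = 0.00109) and SC5D, a sterol desaturase, by 0.36 ± 0.09 (adjusted p = 0.00141). Without the low-COL1A1 libraries they were at 0.13 ± 0.06 and 0.10 ± 0.04, and neither was called. SC5D did not overlap between the groups in either case: its lowest insulin-stimulated library had 89.9 CPM, against 85.3 CPM in the highest untreated one. Without the low-COL1A1 libraries, 2 members were higher without overlap, against 7.54% of all genes tested. Without insulin-stimulated replicate 5 of normal medium, CYP51A1, SC5D and SREBF2 were not called.

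The counts moved when the low-COL1A1 libraries were left out. In the remaining 30 libraries, 4 members were called higher, against 15.4% of all genes, and 16 lower, against 18.1% of all genes, with a median log2 fold change of -0.21. In the same fit 12 of the 20 hepatocyte genes were lower and 1 higher, with a median of -0.30. Scaled by those genes, the same 30 libraries gave 12 members higher and 4 lower, with a median of 0.13, against 0.33 over all genes. The share of all genes called in that fit is not given here, so these counts are not read as a result about the members. With TMM scaling the lower members included 7 of 8 mevalonate genes and 6 of 11 sterol genes, and no synthesis gene was called higher. TM7SF2, a sterol reductase, changed by -0.61 ± 0.09, HMGCS1 by -0.50 ± 0.08, MSMO1, a methylsterol oxidase, by -0.41 ± 0.09 and EBP, a sterol isomerase, by -0.38 ± 0.06. HMGCS1 in those libraries was at 311, 352 and 400 CPM in insulin-stimulated cells, while untreated cells had 364, 471 and 555 CPM, so the ranges overlapped.

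**Figure D4:**
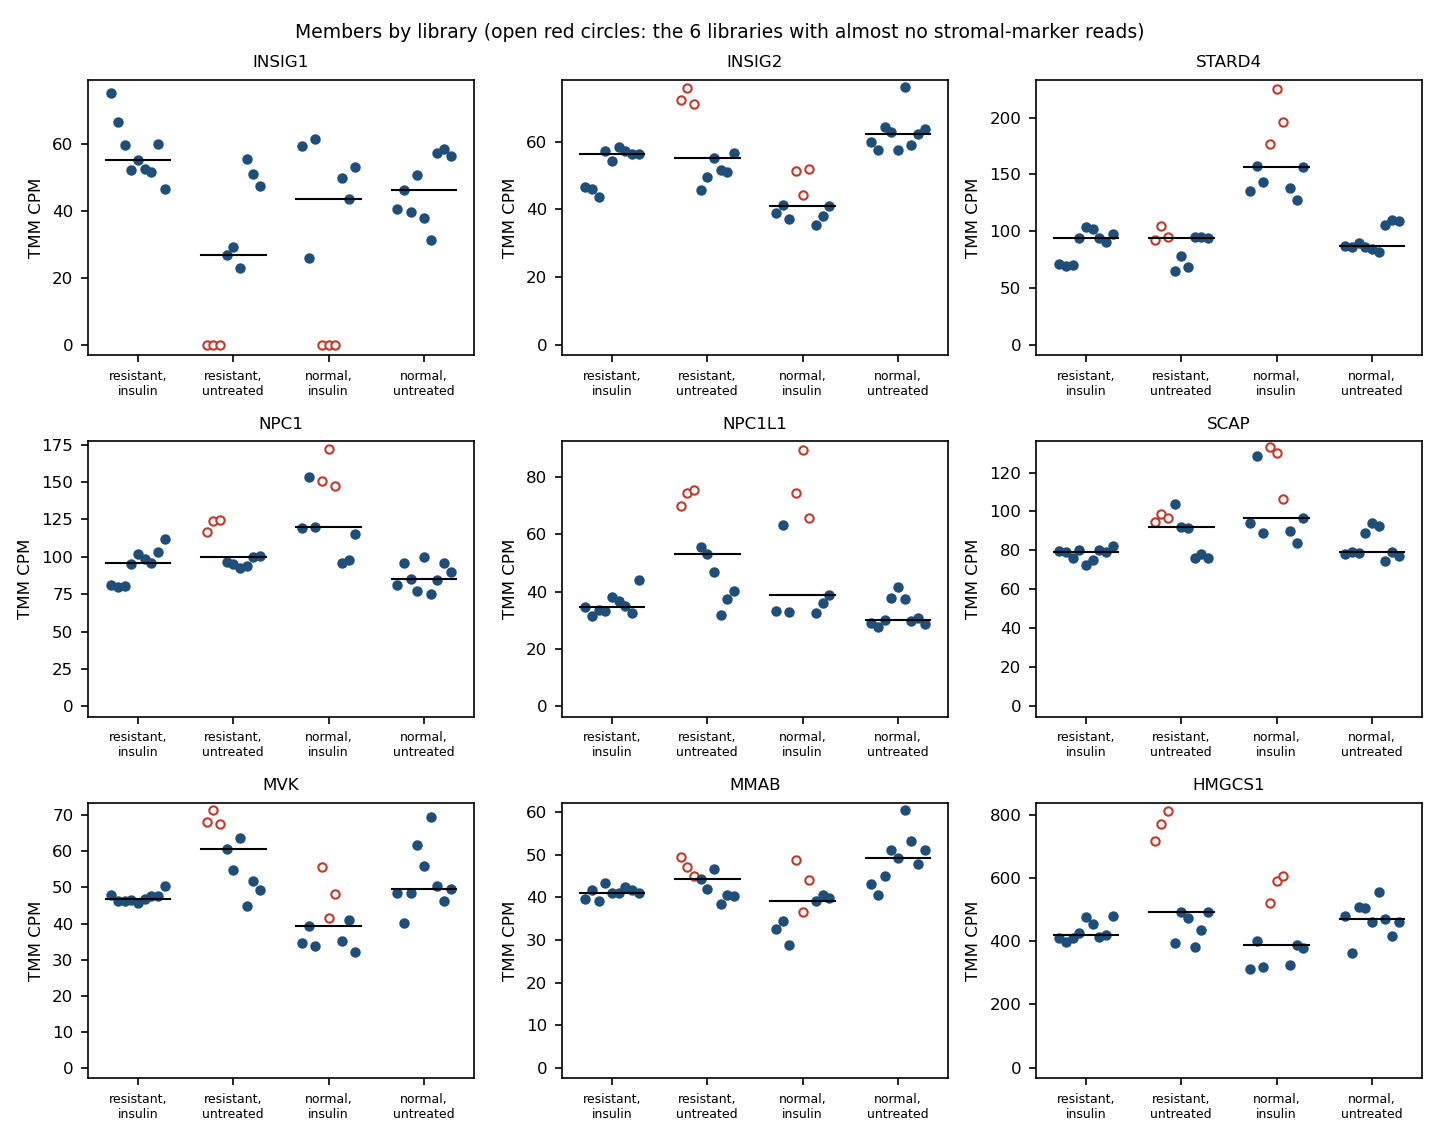
CPM of 9 members in each library by group, with low-COL1A1 libraries as open circles and group medians as lines. INSIG2 and STARD4 in normal medium do not overlap between insulin-stimulated and untreated cells, and INSIG1 is at 0 in the low-COL1A1 libraries. Of all genes tested, 6.63% are higher and 1.81% lower with insulin in normal medium without overlap.

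The library taken as the reference for scaling also bears on these counts. edgeR chose insulin-stimulated replicate 5 of normal medium, which is one of the low-COL1A1 libraries. With the reference it chose once those 6 were left out, used for all 36 libraries, 6 members were higher and 8 lower, and the calls over all genes were 2851 higher and 2933 lower, against 4484 higher and 1843 lower. STARD4, SCAP, NPC1 and NPC1L1 were called higher, and MVK, INSIG2 and MMAB lower, in each of 4 fits, with and without the low-COL1A1 libraries and scaled by TMM or by the hepatocyte genes. Of all genes, 9.62% were called higher and 5.29% lower in each of those 4 fits. When each set of 3 consecutive replicates was summed into 1 sample, INSIG2 was the 1 member still called, at -0.69 ± 0.16 (adjusted p = 0.0463). The share of all genes called in that fit is not given here, so this does not set INSIG2 apart from them. Libraries of such a set resembled each other in their deviations from each gene's mean log2 CPM over all libraries. The median correlation of these deviations was 0.735 over 36 pairs, against 0.242 over 108 pairs from different sets of a group. The labels call the replicates biological but do not say which share a culture, so p-values that treat 9 libraries as independent may be too small.

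The insulin effect in insulin-resistant medium asks whether insulin still changed these genes after 72 h in that medium. Insulin-stimulated cells of this medium had 6 libraries in the 11 April batch, 3 in that of 22 April and 0 in that of 24 May. Each other group had 2 in the 11 April batch and 2 or 3 in that of 24 May. The comparisons that use this group are therefore partly confounded with batch, which the fit holds as a term. No member was called by edgeR's quasi-likelihood test, as 0% of all genes were called higher and 0% lower. At an unadjusted p under 0.05, 18 members and 4490 genes passed, and DESeq2 called 0 members, with 66 genes higher and 59 lower. The median log2 fold change of the members was -0.22, against 0.01 over all genes. Without the low-COL1A1 libraries, which here are 3 untreated ones, 0% of genes were again called in either direction, 1 member and 964 genes had an unadjusted p under 0.05, and the median was 0.00.

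INSIG2 had 43.6, 56.3 and 58.5 CPM in insulin-stimulated cells, against 45.6, 55.0 and 76.0 CPM in untreated cells of insulin-resistant medium. STARD4 had 69.6, 93.8 and 104 CPM in insulin-stimulated cells, against 65.2, 94.4 and 104 CPM in untreated cells. Both genes overlapped widely between these groups. In the 30 libraries, INSIG2 had a log2 fold change of 0.03 ± 0.08 and STARD4 of -0.05 ± 0.10. A fit of the 2 groups alone called 16 members lower, and 2807 of 17187 genes. A replicate block called 5 members and 1763 genes lower, and a fit with no batch term called 6 members and 1555 genes lower, of 17983. These fits kept the low-COL1A1 libraries, and none of them is given without those. With those libraries kept, the absence of calls therefore depends on the model.

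The medium effect in untreated cells asks what the insulin-resistant medium did before stimulation. Over all libraries, 7 members were called higher, against 13.3% of all genes, and 0 lower, against 8.62% of all genes. At an unadjusted p under 0.05, 14 members and 5884 genes passed. DESeq2 also called 7 members higher and 0 lower, with 2584 genes higher and 2055 lower. NPC1L1 had 31.8, 53.3 and 75.4 CPM in insulin-resistant medium, against 27.6, 30.1 and 41.7 CPM in normal medium, with overlapping ranges. Its log2 fold change was 0.75 ± 0.18 (adjusted p = 0.00209), and 0.30 ± 0.07 (adjusted p = 0.00243) without the low-COL1A1 libraries.

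DHCR7, a terminal sterol reductase, was higher by 0.37 ± 0.10 (adjusted p = 0.00654), and NSDHL, which removes sterol methyl groups, by 0.25 ± 0.07 (adjusted p = 0.00881). EBP was higher by 0.31 ± 0.09, MVD, the decarboxylase of the mevalonate steps, by 0.32 ± 0.11, NPC1 by 0.27 ± 0.10 and FDPS, farnesyl diphosphate synthase, by 0.24 ± 0.07. With 1 library left out at a time, NPC1 lost its call in 10 of 36 fits and MVD in 9. NPC1L1, DHCR7, NSDHL, EBP and FDPS kept theirs in all 36. Of the 7, NPC1L1 was the 1 still called without the low-COL1A1 libraries, where the other 6 were at 0.07 to 0.16. In those 30 libraries 1 member was higher, against 10.7% of all genes, and 4 were lower, against 16% of all genes. The 4 were TMEM97 at -0.46 ± 0.08, INSIG2 at -0.32 ± 0.07, MMAB at -0.28 ± 0.07 and TM7SF2 at -0.24 ± 0.09. In the same fit 13 of the 20 hepatocyte genes were lower. Scaled by those genes, the same 30 libraries gave 26 members higher and 0 lower, with a median of 0.45, against 0.44 over all genes. That count thus goes with a shift of nearly the same size over all genes. NPC1L1 was called higher in each of the 4 fits, against 7.35% of all genes.

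The medium effect in insulin-stimulated cells sets the insulin-stimulated cells of the 2 media against each other. Over all libraries, 4 members were called higher, against 12% of all genes, and 9 lower, against 26.3% of all genes. All 4 transport genes were lower. STARD4 had 69.6, 93.8 and 104 CPM in insulin-resistant medium, against 127, 156 and 225 CPM in normal medium, without overlap. Here 2 members were lower without overlap, against 10.2% of all genes tested. The log2 fold change of STARD4 was -0.99 ± 0.11 (adjusted p = 8.18e-09), and -0.72 ± 0.10 (adjusted p = 1e-06) without the low-COL1A1 libraries.

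TMEM97 changed by -0.53 ± 0.13, NPC1 by -0.52 ± 0.10, NPC1L1 by -0.51 ± 0.19, CYP51A1 by -0.46 ± 0.11 and SCAP by -0.37 ± 0.07. SQLE, squalene epoxidase, changed by -0.35 ± 0.12, SC5D by -0.34 ± 0.09 and SREBF2 by -0.28 ± 0.08. The higher members were PMVK at 0.47 ± 0.11, MVK at 0.29 ± 0.10, INSIG2 at 0.28 ± 0.10 and MSMO1 at 0.26 ± 0.10. MVK had 45.7, 46.7 and 50.4 CPM in insulin-resistant medium, against 32.0, 39.3 and 55.6 CPM in normal medium. Of these, CYP51A1, TMEM97, SQLE, SC5D, SREBF2 and NPC1L1 were at -0.20 to 0.01 without the low-COL1A1 libraries and were not called. In the fit over all libraries 16 of the 20 hepatocyte genes were lower and 1 higher. With hepatocyte scaling, STARD4 was the 1 member called lower and 22 were called higher, and the median of all genes moved to 0.53, against a members' median of 0.54. The share of all genes called in that fit is not given here.

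Without the low-COL1A1 libraries, all 3 of which here are in normal medium, 13 members were higher, against 17.8% of all genes, and 3 lower, against 18.2% of all genes. The 13 were 4 mevalonate genes, 7 sterol genes, INSIG2 and MMAB. MVK changed by 0.56 ± 0.07 (adjusted p = 1.34e-07), INSIG2 by 0.51 ± 0.08 (adjusted p = 7.23e-06), EBP by 0.46 ± 0.07 and HMGCS1 by 0.37 ± 0.09. The lower members were STARD4, NPC1 at -0.29 ± 0.09 and SCAP at -0.16 ± 0.05. MVK, PMVK, MSMO1 and INSIG2 were higher in each of the 4 fits, against 10.6% of all genes, and STARD4 was lower, against 2.91% of all genes.

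**Figure D5:**
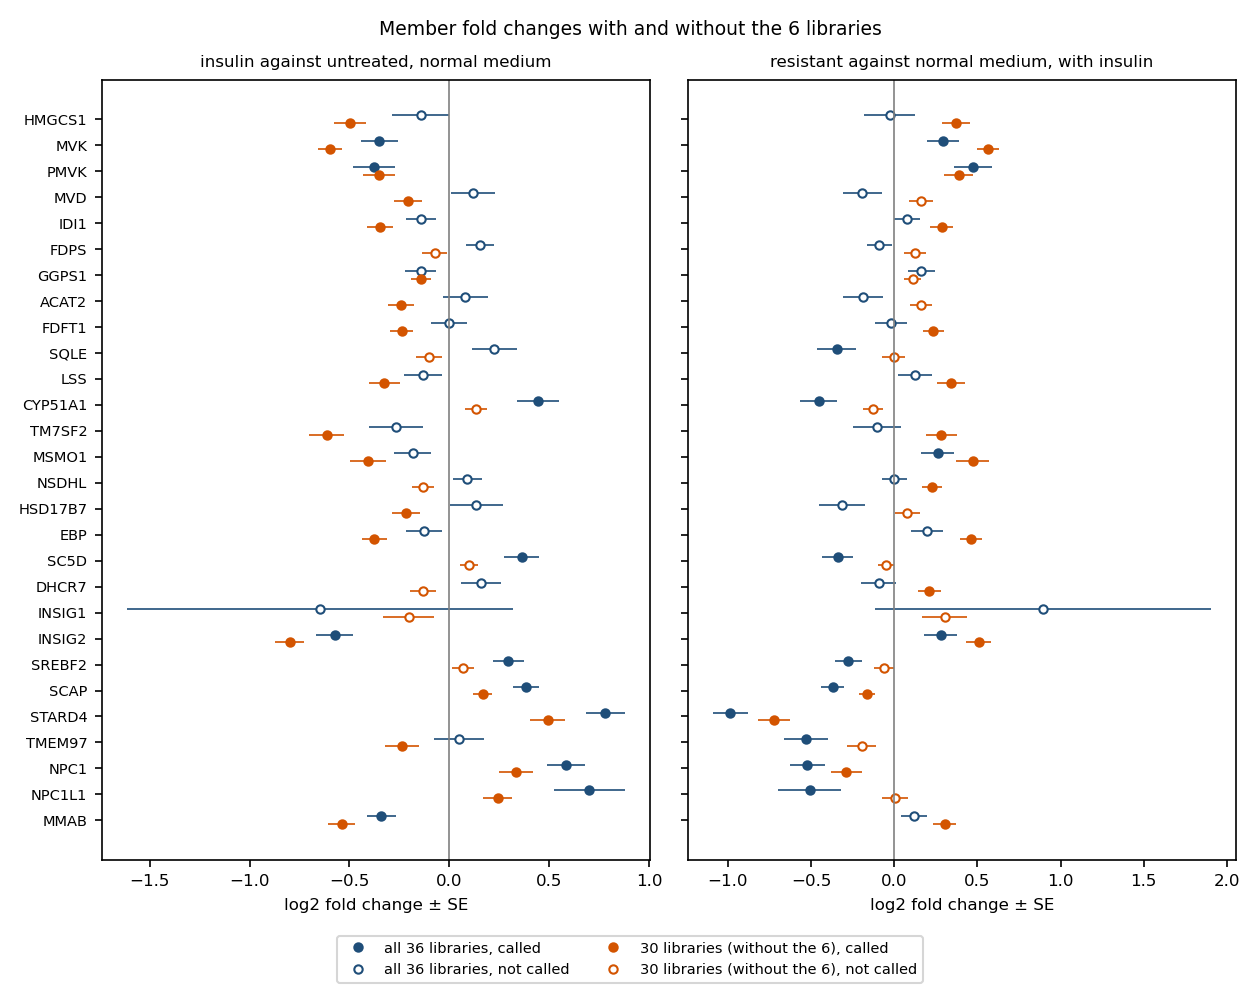
Log2 fold change and SE of each member for insulin in normal medium (left) and for the medium in insulin-stimulated cells (right), over all 36 libraries and without the 6 low-COL1A1 libraries, with called members filled. For the insulin effect in normal medium the median of the members is 0.07 over all libraries and -0.21 without those 6.

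The interaction tests whether the insulin effect differed between the media. A positive value means that the log2 fold change with insulin was higher in insulin-resistant medium. Over all libraries, 3 members had a positive interaction, against 6.22% of all genes, and 12 a negative one, against 23.5% of all genes. NPC1L1 was at -1.25 ± 0.26 (adjusted p = 0.000321), STARD4 at -0.88 ± 0.14 (adjusted p = 1.84e-05) and NPC1 at -0.79 ± 0.14 (adjusted p = 5.83e-05). INSIG2 was at 0.37 ± 0.13 (adjusted p = 0.0324).

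Without the low-COL1A1 libraries the signs of the counts turned, with 13 positive members, against 12.4% of all genes, and 3 negative ones, against 9.37% of all genes. INSIG2 was then at 0.83 ± 0.11 (adjusted p = 1.49e-06), MVK at 0.59 ± 0.09 (adjusted p = 1.86e-05) and MMAB at 0.58 ± 0.10 (adjusted p = 6.33e-05). INSIG1, measurable in the other 30 libraries, was at 0.56 ± 0.18 (adjusted p = 0.0285). Over those 30 its level had a Pearson correlation of 0.54 with the summed stromal genes, on log2 scales. INSIG1 was not alone in this, as the members ranged from -0.65 for SCAP to 0.63 for MSMO1. The part that stromal content plays in the INSIG1 interaction was not tested. STARD4 was negative in both fits, at -0.54 ± 0.13 without the 6 libraries. The median of the members was -0.29 over all libraries and 0.22 without the 6. Scaling turned it as well: with hepatocyte scaling 7 members were positive and 1 negative over all libraries (median 0.19, against 0.35 over all genes). Without the 6, hepatocyte scaling gave 3 positive and 8 negative members (median -0.05, against -0.25 over all genes). With each set of 3 summed, 0 members were called in either direction by edgeR, with 6 at an unadjusted p under 0.05. For the hepatocyte-scaled and summed fits of the interaction, the shares of all genes are not given here.

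The neighbouring pathway genes moved with insulin in normal medium as follows over all libraries, where 24.9% of all genes were higher and 10.2% lower. Each log2 fold change is followed by its value without the low-COL1A1 libraries. Of 12 genes of the prenyl branch, which uses mevalonate for protein lipids and dolichol, 6 rose and 2 fell with insulin, among them NUS1 (0.88 and 0.60), RABGGTB (0.72 and 0.44) and PGGT1B (0.52 and 0.36). Of 12 genes of SREBP processing and sterol-regulated degradation, 7 rose and 0 fell, including PAQR3 (0.37 and 0.36) and VCP (0.30 and 0.19, the second not called). Of 12 genes of sterol uptake, transport and esterification, 7 rose and 1 fell, including SCARB1 (0.54 and 0.17), OSBP (0.43 and 0.27) and GRAMD1A (0.30 and 0.16). Of 11 SREBP1-class lipogenic genes tested, 4 rose and 2 fell, including TMEM41B (0.89 and 0.65), SREBF1 (0.43 and 0.17) and MID1IP1 (0.29 and 0.11), and of 6 other sterol-responsive genes 2 rose and 0 fell, RDH11 (0.23 and 0.03) and PANK3 (0.28 and 0.02), neither called in the 30 libraries. In those 30 libraries, where 15.4% of all genes were higher and 18.1% lower, the higher and lower counts of these 5 lists were 4 and 2, 2 and 0, 3 and 2, 3 and 4, and 0 and 3.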

How the data were processed

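Strand-specific poly-A libraries were counted per Ensembl gene. The values are expected counts deposited by the authors, made with STAR and Salmon on GRCh37 per the submitters' processing notes, which give no versions. Of all values, 9.66% were not whole at a tolerance of 0.005, and all were rounded to whole counts here. Symbols were matched for 51994 genes (90.0%) from a GRCh38 table, used for names only. No coordinates were taken across builds.

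Groups were taken from the titles and batch dates from the labels. edgeR 4.0.16 (limma 3.58.1, R 4.3.3) fitted group and batch over all 36 libraries, with filterByExpr, TMM scaling and robust quasi-likelihood F-tests, Benjamini-Hochberg adjusted over 17983 genes, or 18230 without the low-COL1A1 libraries. DESeq2 1.42.0 was an alternative. Levels are TMM-scaled CPM, with a prior count of 2 for log2 values. SE is the log2 fold change divided by the square root of F. TMM refers every library to 1 reference, which edgeR picks anew for each set of libraries. In the fits that leave out 1 library, and in the fit with no filter, that reference was held at the one used for all 36, except where it was the library left out. It was held after unheld fits had shown that the pick changed in 28 of 36 of them and shifted all genes together.

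Named genes were the up to 8 members with the smallest adjusted p in each comparison, INSIG1, INSIG2, SREBF2, SCAP and NPC1L1, and up to 3 called genes of each neighbouring list by smallest adjusted p. 1 gene that this rule names is not reported here. Other members were named after their values were seen. Members and lists were chosen with earlier results of these data known. The scripts were tested on simulated data.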

Additional observations from a re-analysis of the deposited data

Results flagged for a closer look

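Among 116 groups of 9 values tested, 5 had a single library far from the rest, where chance gives about 1 in 20. MVK was at 50.38 CPM in insulin-stimulated replicate 9 of insulin-resistant medium. Untreated replicate 6 of normal medium was the highest of its group for FDFT1 (542.5 CPM), EBP (85.15 CPM), INSIG2 (76.2 CPM) and ACAT2 (304.6 CPM).

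The insulin effect differed between the media, in edgeR's interaction test over all 36 libraries, for 15 members. In that fit 6.22% of all genes had a positive interaction and 23.5% a negative one. On the log2 scale, insulin-resistant minus normal medium, the difference was -1.25 for NPC1L1, -0.88 for STARD4, -0.79 for NPC1, -0.68 for CYP51A1, -0.55 for SC5D and -0.53 for HSD17B7. It was -0.51 for SQLE, -0.51 for MVD, -0.50 for SCAP, -0.46 for DHCR7, -0.46 for SREBF2 and -0.33 for FDPS. It was 0.54 for PMVK, 0.37 for INSIG2 and 0.28 for MMAB. With 1 library left out at a time, MMAB lost its call in 13 of 36 fits, HSD17B7 in 6 and INSIG2 in 4. The others of the 15 lost theirs in at most 2. Without the low-COL1A1 libraries, SQLE, HSD17B7, MVD and DHCR7 had the opposite sign and were not called. CYP51A1, SC5D, SCAP, SREBF2 and FDPS kept a negative sign there but were also not called.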

How the results depend on the processing

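Counts of members below are given as higher and lower, with the median log2 fold change of the members where it moved, in the order insulin effect in normal medium, insulin effect in insulin-resistant medium, medium effect in untreated cells, medium effect in insulin-stimulated cells and interaction. Shares of all genes are not given beside these counts, so they are not read as results about the members. The values over all 36 libraries were 7 and 4 (0.07), 0 and 0 (-0.22), 7 and 0 (0.19), 4 and 9 (-0.09), and 3 and 12 (-0.29). Without the low-COL1A1 libraries they were 4 and 16 (-0.21), 0 and 0 (0.00), 1 and 4 (-0.02), 13 and 3 (0.19), and 13 and 3 (0.22). With hepatocyte scaling they were 6 and 5 (0.02), 0 and 0 (0.24), 16 and 0 (0.31), 22 and 1 (0.54), and 7 and 1 (0.19), while the median of all genes moved to 0.07, 0.39, 0.16, 0.53 and 0.35. With both changes they were 12 and 4 (0.13), 0 and 0 (0.08), 26 and 0 (0.45), 21 and 1 (0.38), and 3 and 8 (-0.05). With the TMM reference outside the low-COL1A1 libraries, an alternative chosen after seeing the data, they were 6 and 8 (-0.05), 0 and 0 (-0.24), 5 and 0 (0.18), 7 and 6 (-0.01), and 4 and 7 (-0.20). With averaged TMM factors they were 7 and 7 (-0.00), 0 and 0 (-0.22), 5 and 0 (0.18), 6 and 7 (-0.03), and 4 and 10 (-0.23). With DESeq2 they were 7 and 7 (-0.00), 0 and 0 (-0.20), 7 and 0 (0.18), 7 and 7 (-0.02), and 4 and 10 (-0.21). With no filter on low counts they were 7 and 4, 0 and 0, 5 and 0, 4 and 8, and 3 and 10. With no batch term they were 7 and 4, 0 and 6, 6 and 0, 4 and 9, and 2 and 12. With the groups compared fitted alone they were 6 and 4 (0.02), 0 and 16 (-0.28), 6 and 0 (0.20), and 5 and 5 (-0.01).

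With sets of 3 replicates summed, which leaves 12 samples, they were 0 and 1 (-0.07), 0 and 0 (-0.24), 0 and 0 (0.18), 0 and 1 (-0.03), and 0 and 0 (-0.22). The same without the low-COL1A1 libraries, also chosen after seeing the data, gave 0 and 3 (-0.26), 0 and 0 (-0.13), 0 and 0 (0.05), 1 and 0 (0.14), and 0 and 0 (0.11). Within the 22 April batch they were 0 and 3 (-0.15), 0 and 0 (-0.29), 0 and 0 (0.24), 0 and 1 (0.10), and 0 and 0 (-0.15). Within the 11 April batch they were 0 and 1 (0.28), 0 and 0 (-0.28), 0 and 0 (0.36), 1 and 4 (-0.15), and 1 and 0 (-0.49). The 24 May batch held no insulin-stimulated library of insulin-resistant medium and was not fitted. Beyond the smaller number of samples in these fits, the cause was not tested.

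With a replicate block they were 7 and 4 (0.04), 0 and 5 (-0.26), 7 and 0 (0.19), 4 and 10 (-0.11), and 3 and 12 (-0.31). The numbers do not pair the samples. Same-numbered libraries of different groups were correlated on their deviations from each gene's group mean of log2 CPM. These correlations were -0.82 to 0.74 (median 0.06), with 22 of 54 over 0.1.

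Leaving out 1 library at a time with the TMM reference held, members higher and lower ranged over 3 to 8 and 4 to 8 (median -0.09 to 0.11) for insulin in normal medium and 0 and 0 to 4 (-0.25 to -0.16) for insulin in insulin-resistant medium. They ranged over 5 to 10 and 0 (0.14 to 0.22) for the medium in untreated cells, 2 to 6 and 5 to 10 (-0.13 to 0.03) for the medium in insulin-stimulated cells, and 1 to 4 and 7 to 13 (-0.33 to -0.18) for the interaction. Insulin-stimulated replicate 5 of normal medium, which is itself the reference, moved the most: without it, and so with another reference, insulin in normal medium gave 3 higher and 8 lower (-0.09), and CYP51A1, NPC1L1, SC5D and SREBF2 were no longer called. The removal and the change of reference cannot be told apart there. Without it the medium effect in insulin-stimulated cells had 5 lower (0.03) and the interaction 7 lower (-0.18). Without untreated replicate 7 of insulin-resistant medium, insulin there gave 4 lower. Members higher for the medium in insulin-stimulated cells were 2 without insulin-stimulated replicate 9 of normal medium or replicate 4 of insulin-resistant medium. Positive interactions were 1 without untreated replicate 6 of normal medium, untreated replicate 9 or insulin-stimulated replicate 4 of insulin-resistant medium.

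Signs reversed for the following called members, and the cause was not tested. For insulin in normal medium, PMVK was 0.0022 with hepatocyte scaling without the low-COL1A1 libraries. For the medium in insulin-stimulated cells, hepatocyte scaling gave 0.18 for CYP51A1, 0.19 for NPC1L1, 0.29 for SQLE, 0.11 for TMEM97, 0.28 for SC5D, 0.23 for SCAP, 0.088 for NPC1 and 0.33 for SREBF2. With those libraries also left out it gave 0.071 for CYP51A1, 0.21 for NPC1L1, 0.19 for SQLE, 0.0077 for TMEM97, 0.14 for SC5D, 0.033 for SCAP and 0.14 for SREBF2, and TMM without them gave 0.0055 for NPC1L1. For the interaction, leaving those libraries out gave 0.084 for SQLE, 0.19 for HSD17B7, 0.092 for MVD and 0.052 for DHCR7. Hepatocyte scaling gave 0.018 for SQLE, 0.025 for HSD17B7, 0.11 for FDPS, 0.016 for MVD and 0.043 for DHCR7, and summed sets without those libraries gave 0.012 for SQLE and 0.075 for HSD17B7. In the shallowest library a count of 0 allows up to 0.113 CPM, for counting error only.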
